A study of Homo sapiens with 6 samples.

Results

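The stretches described here are the parts of 17 autosomes in which no CENP-A peak was called after depletion of DNAJC9. Chromosomes 1 to 15, 18 and 21 were cut into tiles of 500 kb, and a tile was called empty when it held 0 kb under peaks in both siDNAJC9 CENP-A libraries. Tiles less than 5 Mb from a chromosome end and tiles touching the centromere were left out beforehand, the centromere being taken as the 5-Mb window with the most sequence under CENP-A peaks of siNeg replicate 1. Heterochromatin and acrocentric short arms were left out as well, namely 128 to 142 Mb of chromosome 1, 49 to 76 Mb of chromosome 9, and the first 20 Mb of chromosomes 13, 14, 15 and 21. Of the 4381 tiles that remained, 1010 were empty, and together they covered 505 of 2190.5 Mb. Because the siDNAJC9 CENP-A values chose these tiles, their emptiness is a description and was not tested.

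CENP-A is the histone H3 variant that replaces H3 in the nucleosomes of centromeres and directs assembly of the kinetochore there. Outside centromeres, nucleosomes are built from H3–H4 that histone chaperones hand over during DNA replication and transcription, and CENP-A that enters these pathways ends up on chromosome arms. DNAJC9 is a co-chaperone that recruits HSP70 to fold H3–H4. CENP-A on chromosome arms is called ectopic here.

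The cells were hTERT-RPE1-Tet-GFP-CENP-A, an immortalized retinal pigment epithelial line in which doxycycline (DOX) switches on GFP-tagged CENP-A. Both groups were transfected with siRNA, siNeg as the control or siDNAJC9, and 48 h later received 1 µg/ml DOX for another 48 h, so the control cells carried induced GFP-CENP-A too. The assay was CUT&RUN. A nuclease is brought to an antibody bound in permeabilized cells and cuts out the surrounding DNA for sequencing. For each siRNA, 2 CENP-A libraries (replicates 1 and 3) and 1 library with control IgG (replicate 2) were analysed, all from a single cell line. IgG has no target on chromatin and gives the background of the assay.

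The lists give the position of each peak on T2T-CHM13v2.0 in whole kb, with no height or read count, and the narrowest peak in every list spanned 5 kb. For CENP-A after siDNAJC9 the lists of replicates 1 and 3 held 11411 and 9018 peaks, and after siNeg 1321 and 846. The IgG lists held 4156 peaks with siNeg and 6904 with siDNAJC9. A tile at 0 kb is one without a call, and the read depth behind it is unknown here. CENP-A present in few cells and CENP-A present at a low level in every cell cannot be told apart in such lists. All 3 lists of an siRNA share 1 control, another IgG library of that siRNA that was not analysed here.

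Empty tiles made up 23.1% of all tiles. Peaks were present in 70% of tiles in siDNAJC9 replicate 1 and in 64.7% in replicate 3, the library with fewer peaks, which left 1313 tiles (30%) and 1547 tiles (35.3%) without one. The 1010 empty tiles were therefore 76.9% of the tiles empty in replicate 1 and 65.3% of those empty in replicate 3. Each replicate served as the held-out library for tiles picked in the other. Of the 3068 tiles with a peak in replicate 1, replicate 3 left 17.5% without a peak (95% Wilson interval 16.2 to 18.9), against 76.9% (74.6 to 79.1) of those empty in replicate 1. Picked the other way, 10.7% (9.61 to 11.9) of the 2834 tiles with a peak in replicate 3 were empty in replicate 1, against 65.3% (62.9 to 67.6) of those empty in replicate 3. Tiles empty in replicate 1 only numbered 303, and those empty in replicate 3 only numbered 537. Tiles empty in either replicate were thus more often empty in the other than tiles with a peak were, but the sharing was partial. Both lists were called against the same control, whose part in this was not tested. The intervals cover counting error only, and neighbouring tiles are not independent, so no test over tiles was made.

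At the threshold, the next tiles beyond the empty ones were 325 with 1 to 5 kb under siDNAJC9 peaks summed over both libraries, which is a single narrow peak or the ends of peaks that reach into the tile. Another 355 tiles held 6 to 10 kb, 645 held 11 to 20 kb and 2046 held more. In the 3371 tiles that were not empty, the median was 16 kb in replicate 1 and 11 kb in replicate 3, and the highest values were 163 and 134 kb. The threshold thus lay in a continuous range of coverage, and a single peak of 5 kb would have removed any tile from the empty ones.

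Empty tiles lay side by side over megabases. They formed 559 runs, of which 334 were single tiles and 225 spanned 1 Mb or more. The latter held 676 of the 1010 empty tiles (66.9%) and 338 Mb, and every one of the 17 chromosomes had at least 1 of them. There were 57 runs of 2 Mb or more and 17 runs of 3 Mb or more, the last on 10 chromosomes and covering 59.5 Mb. For comparison, measured directly from peak to peak and without tiles, the median distance between neighbouring siDNAJC9 peaks was 59 kb, and 331 of 13122 such gaps reached 1 Mb.

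**Figure D1:**
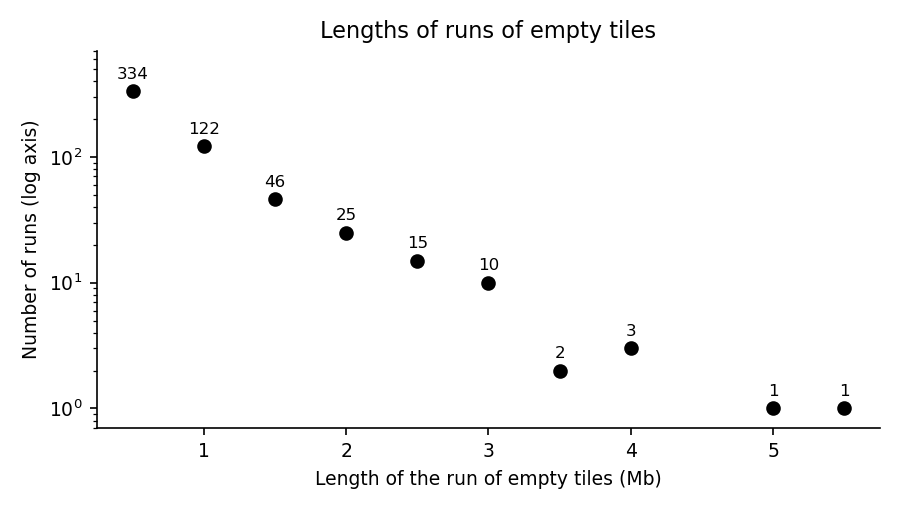
The number of runs of neighbouring empty tiles (y axis, log scale) is plotted against their length in Mb (x axis), 1 point per length with its count. Counts fell from 334 single tiles to 1 run each of 5 and 5.5 Mb.

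The longest run lay on chromosome 2, chr2:76500001-82000000, 5.5 Mb without a peak in siDNAJC9 replicate 1 or 3. Measured to the nearest peaks, the gap was 5922 kb, and a peak of replicate 3 bordered it on each side, of 5 and 6 kb. In replicate 1 alone the gap was 7268 kb. The siNeg CENP-A replicates had 0 kb there too, while the siNeg IgG list had 45 kb and the siDNAJC9 IgG list 15 kb. Per Mb, this was 8.18 kb with siNeg and 2.73 kb with siDNAJC9, where the averages over all tiles were 8.85 and 11.7 kb. IgG peaks were thus called in this stretch under both siRNAs, with siDNAJC9 far below average, and CENP-A peaks under neither. Most tiles had no siNeg CENP-A peak, as those of replicates 1 and 3 were present in 7.87% and 2.49% of all tiles.

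The second run spanned 5 Mb on the long arm of chromosome 10, chr10:53500001-58500000. Both siDNAJC9 libraries had nearly the same gap there, of 5207 kb in replicate 1 and 5204 kb in replicate 3. The siNeg CENP-A replicates had 0 kb, the siNeg IgG list 41 kb and the siDNAJC9 IgG list 20 kb. Chromosome 11 carried a run with a gap of equal length in both libraries, 4702 kb around chr11:39500001-43500000. IgG peaks covered 40 kb with siNeg and 26 kb with siDNAJC9 in that run, and siNeg CENP-A peaks covered 0 kb in both replicates.

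A run of 4 Mb on chromosome 2, chr2:122000001-126000000, was the only one of the 17 longest with a siNeg CENP-A peak. The peak covered 6 kb in siNeg replicate 1, near the end of the run, and siNeg replicate 3 had 0 kb. IgG peaks covered 39 kb with siNeg and 32 kb with siDNAJC9. Of the 225 runs of 1 Mb or more, 33 held a siNeg CENP-A peak. Stretches of like length elsewhere were not counted, so neither count can be called high or low.

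The run at chr9:39500001-43500000 differed from the long runs described above. It ended 269 kb from the centromeric window and held only 5 kb under siNeg IgG peaks and 0 kb under siDNAJC9 IgG peaks. The part of mappability in this run was not tested. The other 2 of the 7 runs longer than 3 Mb, chr13:55000001-58500000 and one on chromosome 14, held peaks of both IgG lists. Behind these 7, 10 runs tied at 3 Mb. The first of them in chromosome order, chr1:72500001-75500000 and chr2:114500001-117500000, held 35 and 36 kb under siNeg IgG peaks and 22 and 16 kb under siDNAJC9 IgG peaks. Of the tied runs, 2 on chromosome 9 (chr9:27500001-30500000 and chr9:76000001-79000000) held no siNeg IgG peak, and 1 on chromosome 4 (chr4:65000001-68000000) held no siDNAJC9 IgG peak. The gaps around 9 of the tied runs went from 3164 to 3724 kb, and the tenth, chr9:76000001-79000000, borders the heterochromatin left out, so that no gap is given for it. Which genes these stretches hold was not analysed here, because no annotation of this build was used.

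Long runs found in 1 library had low coverage in the other, which was called against the same control. Most of these runs still held peaks of the other library. The 29 runs of 3 Mb or more that replicate 1 alone gave covered 104.5 Mb, in which replicate 3 had 31 peaks and 1.69 kb per Mb, 6.85% of its 24.7 kb per Mb over all tiles. In 11 of the 29 it had none. The 40 such runs of replicate 3 covered 147 Mb, in which replicate 1 had 92 peaks and 3.86 kb per Mb, 11.5% of its 33.6 kb per Mb over all tiles, and none in 11 of the 40. The longest run of replicate 1, chr2:76000001-82500000, held 2 peaks of replicate 3, and the longest of replicate 3, chr13:51500001-58500000, held 4 peaks of replicate 1.

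IgG peaks were used to ask whether the empty tiles could yield peaks at all. IgG coverage in empty tiles was slightly below that elsewhere. The siNeg IgG list covered 7.92 kb per Mb of empty tiles and 9.12 kb per Mb of other tiles, 86.9% of the latter. The siDNAJC9 IgG list covered 10.6 and 12 kb per Mb, 88.1%. Peaks of the siNeg IgG list were present in 48.5% of the empty tiles, where the share over all tiles was 52.5%, and those of the siDNAJC9 IgG list in 52.3%, against 55.4%. At least 1 IgG list had a peak in 747 of the 1010 empty tiles (74.0%), against 78.4% of all tiles, and both had one in 271 (26.8%), against 29.6%. With 1 IgG library per siRNA, these differences have no replicate check.

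The lower IgG coverage depended in part on chromosome 10. Without it, the empty tiles had 91.0% of the coverage of other tiles in the siNeg IgG list and 101.3% in the siDNAJC9 IgG list. On chromosome 10 alone these values were 66.1% and 35.2%. By chromosome, siNeg IgG coverage was lower in empty than in other tiles on 12 of 17 chromosomes and siDNAJC9 IgG coverage on 9 of 17.

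Turned around, 27.7% of the 948 tiles without any IgG peak were empty, 22.3% of the 2136 with a peak in 1 IgG list, and 20.9% of the 1297 with a peak in both (Wilson intervals 25.0 to 30.7, 20.6 to 24.1 and 18.8 to 23.2). Emptiness was thus a little more frequent where IgG peaks were missing. Tiles without any IgG peak were 26.0% of the empty tiles and 20.3% of the other tiles. The part of mappability in this difference was not tested. No peak in any of the 6 lists was found in 247 of the 4381 tiles, all of them among the 1010 empty ones (24.5%). Other tiles hold a siDNAJC9 peak by definition, so this share has no counterpart among them.

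The 2 IgG lists differed with the length of the run. In runs of 1 tile, of 1 Mb, of 1.5 to 2.5 Mb, and of 3 Mb or more, siDNAJC9 IgG peaks covered 12.5, 11.5, 9.67 and 5.65 kb per Mb. The siNeg IgG list had 8.71, 7.41, 7.63 and 7.56 kb per Mb in the same runs. In the 17 longest runs the siNeg list had more than its average over all tiles, 8.85 kb per Mb, in 7, and the siDNAJC9 list more than its average of 11.7 kb per Mb in 1. That was a run of 3.5 Mb on chromosome 14, chr14:75500001-79000000, with 57 kb under siDNAJC9 IgG peaks and 26 kb under siNeg IgG peaks. Without the runs at the edge of the tiles analysed, the 14 remaining runs of 3 Mb or more had 5.74 kb per Mb of siDNAJC9 IgG and 8.24 kb per Mb of siNeg IgG. The siDNAJC9 IgG and CENP-A lists were called against the same control, whose part in this was not tested.

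**Figure D2:**
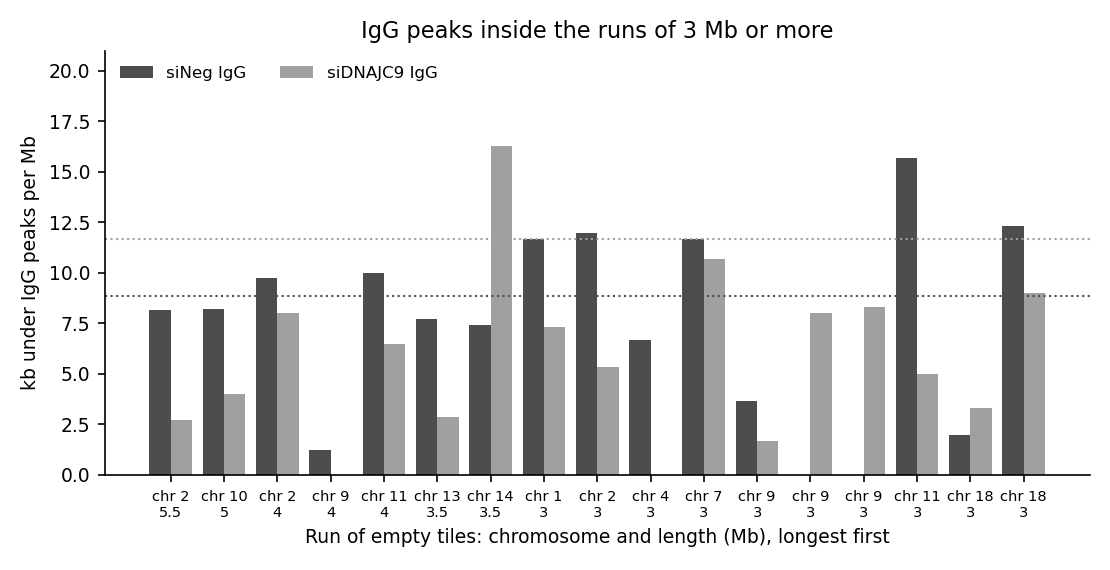
Bars give the kb under IgG peaks per Mb (y axis) inside each of the 17 runs of 3 Mb or more (x axis, chromosome and length in Mb), dark for siNeg and light for siDNAJC9, 1 library each. Dotted lines mark each list's average over all tiles, 8.85 and 11.7 kb per Mb; the siDNAJC9 bars pass theirs in 1 run.

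Some empty tiles were rich in IgG peaks. Ranked by IgG coverage per Mb of whole runs, which favours runs of 1 tile, the highest was a single tile on the long arm of chromosome 10, chr10:72000001-72500000, with 30 kb under siNeg IgG peaks and 56 kb under siDNAJC9 IgG peaks, and no CENP-A peak under either siRNA. Ranked tile by tile, that tile was also first. The next runs were single tiles on chromosomes 4, 8, 10 and 11. Tiles inside longer runs reached like values, with 35 and 16 kb at chr10:86000001-86500000, where siNeg replicate 1 had a CENP-A peak, and 28 and 20 kb at chr10:81500001-82000000. The tile on chromosome 4, chr4:7000001-7500000, had 10 and 50 kb, and that on chromosome 11, chr11:64500001-65000000, had 0 and 44 kb. At the other end, 16 of the 225 runs of 1 Mb or more held no IgG peak, a count without a counterpart for stretches of like length elsewhere. The longest of these 16 runs, 2.5 Mb at chr2:89000001-91500000, ended 71 kb from the centromeric window. The next, of 1.5 Mb each, lay at chr5:70500001-72000000 and chr8:11500001-13000000, well away from the centromere, and none of these 3 runs held a peak in any list. The part of mappability in these 3 runs was not tested.

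Control cells also had fewer CENP-A peaks in the empty tiles, although these cells chose the centromeric windows only, not the empty tiles. In siNeg replicate 1, CENP-A peaks covered 0.461 kb per Mb of empty tiles and 1.13 kb per Mb of other tiles, 41.0% of the latter. In siNeg replicate 3 they covered 0.111 and 0.405 kb per Mb, 27.4%. Peaks of replicate 1 were present in 41 empty tiles (4.06%), where the share over all tiles was 7.87%, and peaks of replicate 3 in 9 (0.891%), against 2.49%. Either list had a peak in 48 empty tiles (4.75%), against 9.63% of all tiles.

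The siNeg CENP-A lists were compared with the IgG lists on the log2 ratio of coverage in empty to that in other tiles, with 0.01 kb per Mb added to both. The mean was -1.52 ± 0.36 (SD, n = 2) for siNeg CENP-A and -0.19 ± 0.015 (SD, n = 2) for IgG, 1 library of each siRNA. The SD of IgG thus spans both siRNAs and is not a spread of replicates. As 1 IgG library came from siDNAJC9 cells, the comparison does not separate antibody from siRNA. Both siNeg CENP-A libraries lay below both IgG libraries, and the difference was -1.33. An exact two-sided permutation test of it gave p = 0.333, below which a comparison of 2 with 2 libraries cannot go. The siNeg values rest on 233 and 56 kb. With tiles that started at 250 kb, siNeg replicate 3 had 130 kb in empty tiles and 70.7% of the coverage of other tiles, siNeg replicate 1 had 46.0%, and the IgG lists had 88.0% and 85.6%.

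Beyond the empty tiles, siNeg coverage rose mainly in the tiles with the most siDNAJC9 coverage. When the other tiles were divided in order of their mean siDNAJC9 coverage into a lowest, middle and highest group of about equal number, siNeg replicate 1 had 0.768, 0.795 and 1.83 kb per Mb and siNeg replicate 3 had 0.240, 0.299 and 0.682 kb per Mb. IgG coverage moved less. With siNeg it rose from 8.62 through 9.03 to 9.75 kb per Mb, and with siDNAJC9 it lay between 11.7 and 12.4 kb per Mb. The groups include chromosome 10, whose other tiles beyond 60 Mb had 4.30 and 2.05 kb per Mb in siNeg CENP-A replicates 1 and 3.

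**Figure D3:**
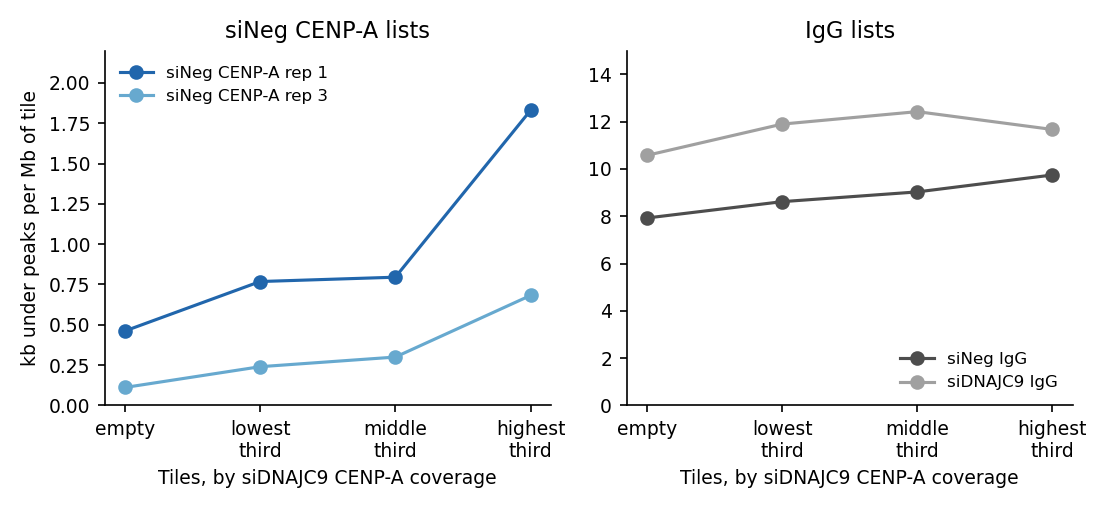
Coverage in kb under peaks per Mb of tile (y axes, from 0, on different scales) is shown for empty tiles and for other tiles grouped by siDNAJC9 CENP-A coverage, in the siNeg CENP-A lists (left) and the IgG lists (right), 1 line per library. siNeg CENP-A rises from 0.461 to 1.83 kb per Mb in replicate 1 and from 0.111 to 0.682 kb per Mb in replicate 3. siNeg IgG rises from 7.92 to 9.75 kb per Mb, and siDNAJC9 IgG lies between 10.6 and 12.4 kb per Mb.

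Counted as peaks, 42 of the 377 siNeg peaks of replicate 1 (11.1%, Wilson interval 8.35 to 14.7) and 10 of the 122 of replicate 3 (8.20%, 4.51 to 14.4) touched an empty tile, although empty tiles were 23.1% of the total. The IgG lists had 20.7% and 21% of their peaks there. In width these siNeg peaks were much like those elsewhere: 28 of the 42 in replicate 1 (66.7%) spanned 5 kb, where 223 of the 335 in other tiles did (66.6%), and 7 of the 10 in replicate 3 did, where 66 of 112 did in other tiles (58.9%). IgG peaks overlapped 3 of the 42 and 0 of the 10, and in other tiles 45 of the 335 and 16 of the 112. The nearest siDNAJC9 peak lay a median of 424 and 490.5 kb away. These distances follow in part from the choice of tiles without siDNAJC9 peaks.

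At a single place in the empty tiles, both siNeg libraries called the same peak. It spanned 9 kb at chr2:49221001-49230000, with identical borders in replicates 1 and 3, no IgG peak over it, and the nearest siDNAJC9 peak 501 kb away. That distance too follows in part from the choice of tiles. The surrounding run, chr2:49000001-50000000, held 10 kb under siNeg IgG peaks and 0 kb under siDNAJC9 IgG peaks. The run at chr12:5000001-6000000 held a peak of each siNeg library too, of 7 kb in replicate 1 and 6 kb in replicate 3, but at different positions, chr12:5544001-5551000 and chr12:5814001-5820000. The remaining runs with the most siNeg sequence, on chromosomes 2, 3 and 10, held peaks of 1 siNeg library only. That on the long arm of chromosome 10, chr10:81500001-83000000, combined 10 kb of siNeg replicate 1 with 59 kb under siNeg IgG peaks and 53 kb under siDNAJC9 IgG peaks.

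The share of empty tiles differed by chromosome. It was highest on chromosome 18 with 35.7% (46 of 129, Wilson interval 27.9 to 44.2), followed by chromosome 14 with 30.5% (46 of 151) and chromosome 9 with 30.2% (65 of 215). It was lowest on chromosome 4 with 16.6% (59 of 355, 13.1 to 20.8), chromosome 3 with 16.8% (62 of 370) and chromosome 6 with 19.2% (60 of 312). Chromosomes 4 and 18, both known to be gene-poor, thus stood at opposite ends, with chromosome 13, gene-poor too, between them at 22.7%. The tiles of chromosome 18 that were not empty were covered to 33.9 kb per Mb in siDNAJC9 replicate 1 and 25.4 kb per Mb in replicate 3, and those of chromosome 4 to 44.6 and 30.8 kb per Mb. The short arm had the higher share on 9 of the 13 chromosomes with tiles on both arms and the long arm on 4. On chromosome 3 the short arm had 24.3% empty tiles and the long arm 10.2%, and on chromosome 4 these shares were 27.8% and 12.8%. Chromosome 9 had 42.9% on the short arm and 23.2% on the long arm. The order was the reverse on chromosome 18, with 27.3% on the short arm and 37.4% on the long arm, and on chromosome 12, with 14.8% and 24.3%. With a single value per chromosome and library, these differences were not tested.

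**Figure D4:**
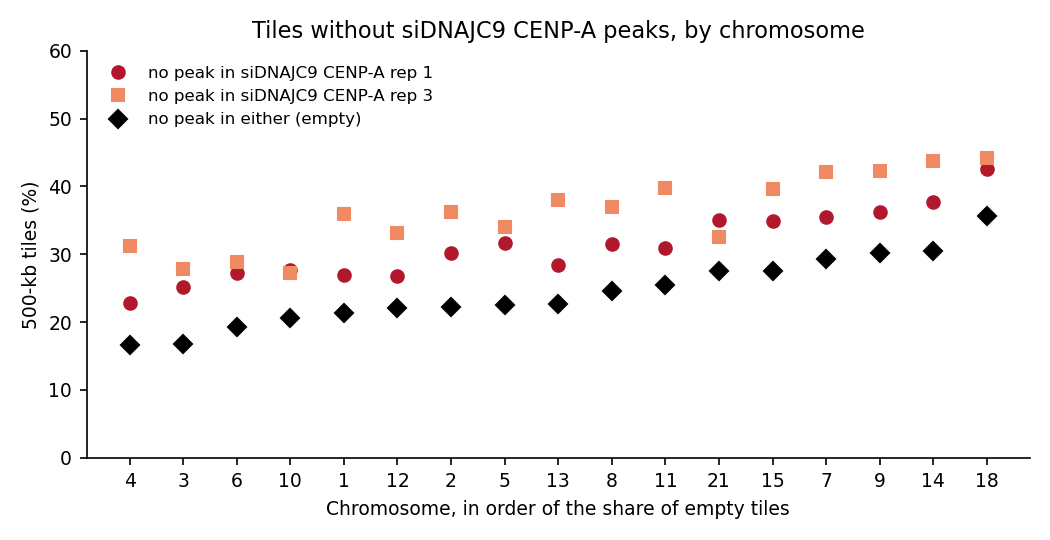
The percentage of 500-kb tiles (y axis, from 0) without a peak in siDNAJC9 CENP-A replicate 1 (circles), replicate 3 (squares) and both (diamonds) is shown for 17 chromosomes, ordered by the last. The share without a peak in both runs from 16.6% on chromosome 4 to 35.7% on chromosome 18.

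On chromosome 10 the densities known from these lists set a border at 60 Mb. Before it, 35 of 99 tiles (35.4%) were empty, and beyond it 14 of 139 (10.1%). Because these lists placed the border, the difference across it is a description and was not tested. Those 14 tiles still had 38.4 kb per Mb under siNeg IgG peaks and 34.4 kb per Mb under siDNAJC9 IgG peaks, against 29.9 and 55.4 kb per Mb in the other tiles beyond 60 Mb. In the other tiles before 60 Mb these values were 9.41 and 15.3 kb per Mb. hTERT-RPE1 cells are known to carry an extra copy of part of this arm, whose part in these values was not tested.

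Empty tiles were most frequent toward both ends of the arms. Within 2 Mb of a centromeric window or other stretch left out, 44.3% of 122 tiles were empty (Wilson interval 35.8 to 53.1), from 2 to 5 Mb 33.3% of 180, and beyond 50 Mb 19% of 1681 (17.2 to 20.9). The share within 5 Mb, 37.7%, exceeded that elsewhere on the same chromosome on 12 of 17 chromosomes. IgG coverage was low there as well: empty tiles within 2 Mb had 3.37 kb per Mb of siNeg IgG and 5.67 kb per Mb of siDNAJC9 IgG, and the other tiles at that distance 5.71 and 9.29 kb per Mb. The part of mappability in this was not tested.

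Toward the telomeres the IgG values were different. Between 5 and 10 Mb from a chromosome end, 39.3% of 300 tiles were empty (Wilson interval 34.0 to 45.0), against 21.9% farther in, and the share was higher on 14 of 17 chromosomes. The replicates that chose the tiles had like shares: 44.3% against 28.9% of tiles were empty in replicate 1 and 53.7% against 34.0% in replicate 3. The empty tiles of this zone had 7.17 kb per Mb of siNeg IgG, near the 7.60 kb per Mb of its other tiles, and 16.4 kb per Mb of siDNAJC9 IgG, where its other tiles had 19.5 kb per Mb.

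Coverage just outside the runs of 1 Mb or more was lower than in non-empty tiles at large. The first tile beyond a border is not empty by construction. It was covered to 29.2 kb per Mb by siDNAJC9 peaks of replicate 1 and to 20.3 kb per Mb by those of replicate 3, and all tiles that were not empty were covered to 43.6 and 32.1 kb per Mb. In the second tile, centred 0.75 Mb from the border, 23.1% were empty, the same as the share over all tiles, and coverage was 31 and 24 kb per Mb. Over all tiles, empty ones included, it was 33.6 and 24.7 kb per Mb. From 1.25 to 4.75 Mb, coverage ran from 27.7 to 35.7 kb per Mb in replicate 1 and from 21.4 to 26.2 kb per Mb in replicate 3, and 20.9% to 28.2% of tiles were empty. Up to 2.75 Mb, coverage thus stayed below the average of all tiles in both replicates, and beyond that it lay on either side of it. IgG coverage stayed between 7.99 and 9.39 kb per Mb with siNeg and between 11.3 and 13 kb per Mb with siDNAJC9 over the whole distance. As these values come from the lists that chose the runs, the CENP-A profile is a description.

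**Figure D5:**
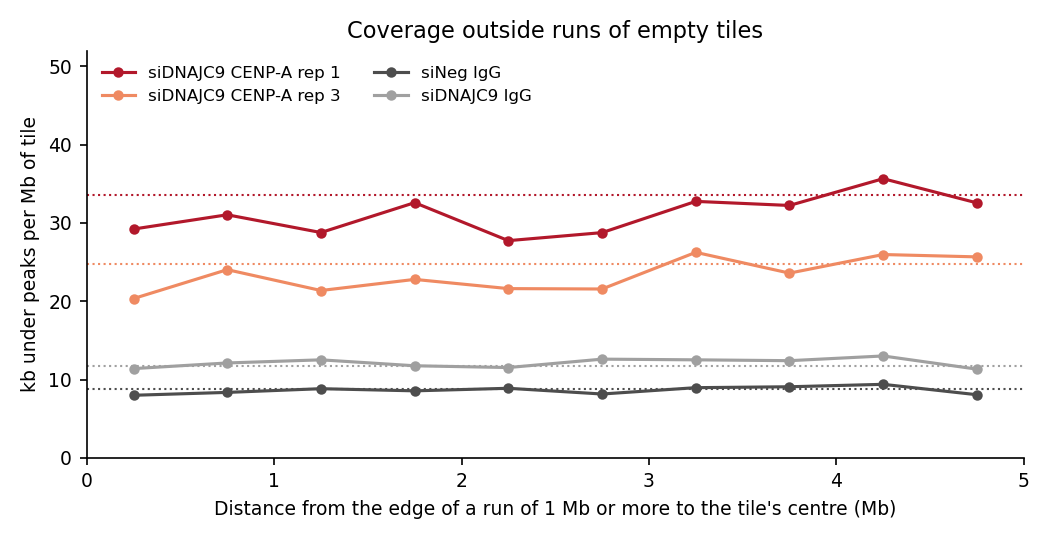
Mean coverage in kb under peaks per Mb of tile (y axis, from 0) is plotted by distance in Mb from the border of a run of 1 Mb or more to the tile's centre (x axis), over both sides, 1 line per library. Dotted lines give each library's average over all tiles; at 0.75 Mb siDNAJC9 replicates 1 and 3 stand at 31 and 24 kb per Mb beside averages of 33.6 and 24.7 kb per Mb.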

How the data were processed

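CUT&RUN libraries of CENP-A and IgG from siNeg- and siDNAJC9-transfected cells were grouped by the sample labels. The authors trimmed reads with Cutadapt, aligned them with bowtie2 to T2T-CHM13v2.0, removed duplicates with Picard, and called broad peaks per library with GoPeaks after E. coli spike-in normalization. bcl2fastq, Bowtie and T2T-CHM13 are also listed in the submitters' processing notes. The deposited lists hold peak positions in whole kb and no score or count, so no stricter caller threshold was tried and reads were not tested, and the control, spike-in factor and threshold decide whether a region is listed.

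From the lists, kb under peaks were summed in 500-kb tiles from position 0. The end of a chromosome was the highest position in any list, and a tile touching a stretch left out by any base was dropped. Neighbouring empty tiles were joined into runs. Tiles and runs were checked on simulated peaks with planted runs. Library ratios were compared by an exact permutation test (scipy 1.17.1, Python 3.11.15, numpy 2.4.6, pandas 2.3.3), and shares of tiles carry 95% Wilson intervals. The members, lists and tests were chosen with earlier results of these data known. The runs named are the 10 longest (3 of them taken, in chromosome order, from 10 tied at 3 Mb), the 5 with the most IgG coverage, the 5 longest without IgG peaks and the 5 with the most siNeg CENP-A sequence, and the chromosomes those with the 3 highest and 3 lowest shares; others named were chosen after their values were seen. Genes, GC content and sequences were not analysed, because no genome of this build was used. Alternatives varied the tiles, the meaning of empty, the peak width, the stretches left out, the chromosomes and the libraries.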

Additional observations from a re-analysis of the deposited data

How the results depend on the processing

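Read depth and peak height are not in the lists, so how many tiles are empty for want of reads is unknown. No paired analysis was possible because siNeg CENP-A (replicates 1 and 3) and IgG (replicate 2) share no replicate number and the siDNAJC9 CENP-A values were fixed by the choice of tiles. The 1010 empty tiles became 3423 with 250-kb tiles, 221 with 1-Mb tiles, which change the unit counted, and 1778 with siDNAJC9 peaks of at least 7 kb, and 1313 to 1547 with 1 siDNAJC9 replicate left out (1547 without replicate 1). The 225 runs of 1 Mb or more became 387 with peaks of at least 7 kb and 295 to 347 with 1 replicate left out (347 without replicate 1). The longest run, 5.5 Mb, was 6.5 to 7 Mb with 1 replicate left out. It was 12.5 Mb on all autosomes, where no heterochromatin or acrocentric short arm was left out on the added chromosomes. The mean log2 ratio of IgG coverage in empty to other tiles, -0.19, stayed below 0 in each alternative run. It was -0.15 with 250-kb tiles, -0.31 with 1-Mb tiles, -0.14 with up to 5 kb allowed, -0.077 with peaks of at least 7 kb, -0.22 at 10 Mb from the ends, -0.0471 with no distance from them, -0.15 with the window widened by 5 Mb, -0.18 on all autosomes, -0.20 to -0.13 with 1 library left out and -0.0582 without chromosome 10, an alternative chosen after seeing the data. For siNeg CENP-A, -1.52 became -0.80 with tiles that started at 250 kb and ran from -1.78 to -1.23 with 1 library left out. It stayed below 0 in each alternative run too. The difference of -1.33 between siNeg CENP-A and IgG was -1.002 with 0.1 kb per Mb added (exact permutation p = 0.333) and -1.59 to -1.08 with 1 library left out. The share of tiles empty in the held-out replicate was 82.1%, 70.8% and 86.4% for tiles picked in replicate 1, and 72.3%, 57.4% and 71.4% for those picked in replicate 3, with 250-kb tiles, 1-Mb tiles and peaks of at least 7 kb. Among tiles with a peak in replicate 1, the shares were 28.4%, 8.78% and 30.6% in the same order. Among those with a peak in replicate 3, they were 18.4%, 5.07% and 14.8%. The cause of these shifts was not tested, apart from the change of unit named.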
